A study of Mus musculus with 8 samples.

Results

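Skeletal muscle contractile genes were followed in the bulk RNA-seq of brown adipose tissue (BAT) of individual mice. They comprised 38 genes of the 31053 in the deposited table, chosen by name because their counts varied widely between mice: 11 sarcomere genes of fast fibres, 6 of slow fibres, 11 sarcomere and Z-disc genes that fibre types share, 6 genes of calcium release and uptake, and 4 of energy supply and oxygen storage. All 38 were found in the table, and 1 of them, listed as Eno3-, was read as Eno3. Because the spread between mice chose the genes, that spread is described here and was not tested.

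The samples were BAT of 4 WT mice and of 4 mice labelled ATGLKO, written Ucp1Δ/Δ below, all of strain C57BL6/J. The labels give an age of 10 weeks, and the paper describes this model at a younger age and its mice as male. In Ucp1Δ/Δ mice a floxed Pnpla2, which encodes the triglyceride lipase ATGL, is deleted by a Cre recombinase under the Ucp1 promoter, so the deletion targets cells that express Ucp1 and leaves Pnpla2 intact in the other cells of the tissue, muscle fibres included. Each library was 1 mouse, and the WT libraries carry no label on Cre or floxed alleles. The labels also name a stromal vascular fraction, the cells left after adipocytes are removed, yet the adipocyte genes Ucp1, Adipoq and Plin1 each had at least 634 counts in every library.

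Total counts ranged from 2017697 to 3115956 per library in WT and from 2240612 to 2941799 in Ucp1Δ/Δ mice, and mitochondrially encoded genes took between 38.4% and 45.6% of them. Pnpla2 was at 2837, 2702, 2961 and 3152 CPM (counts scaled to library size) in WT mice 1 to 4 and at 514, 448, 403 and 531 CPM in Ucp1Δ/Δ mice 1 to 4, so each library matched its label (log2FC -2.62, standard error 0.17, adjusted p = 1.97e-07, edgeR, quasi-likelihood, Benjamini-Hochberg adjustment). CPM were taken after TMM scaling of the libraries, and log2FC is always Ucp1Δ/Δ minus WT. Levels are compared between mice for the same gene, and not between genes, since the counts are not corrected for transcript length.

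The contractile unit of skeletal muscle is the sarcomere, in which myosin filaments pull on actin filaments that are anchored at the Z-disc. Fibres come in fast and slow types that use different isoforms of myosin, troponin and myosin light chain, and calcium released from the sarcoplasmic reticulum starts each contraction. Brown adipocytes of the interscapular depot and skeletal muscle share Myf5-expressing progenitors in the embryo, but mature brown adipocytes have no sarcomeres.

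Summed over the 38 genes, the level was 4166, 412, 235 and 1868 CPM in WT mice 1 to 4 and 975.1, 5147, 353 and 2607 CPM in Ucp1Δ/Δ mice 1 to 4. The genotypes overlapped throughout: WT mouse 3 was the lowest of all and WT mouse 1 the second highest, while Ucp1Δ/Δ mice held the highest place and the second lowest. Highest and lowest differed 21.9-fold, by 17.7-fold within WT and 14.6-fold within Ucp1Δ/Δ, and the means were 1671 ± 1818 CPM (SD, n = 4) and 2270 ± 2140 CPM (SD, n = 4). Single mice decided these means: without WT mouse 1 the WT mean was 839 CPM, and without Ucp1Δ/Δ mouse 2 the Ucp1Δ/Δ mean was 1312 CPM. As a share of all counts, the genes took between 0.0226% in WT mouse 3 and 0.562% in Ucp1Δ/Δ mouse 2. In bulk tissue, fewer muscle cells and less muscle RNA per cell cannot be told apart.

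**Figure D1:**
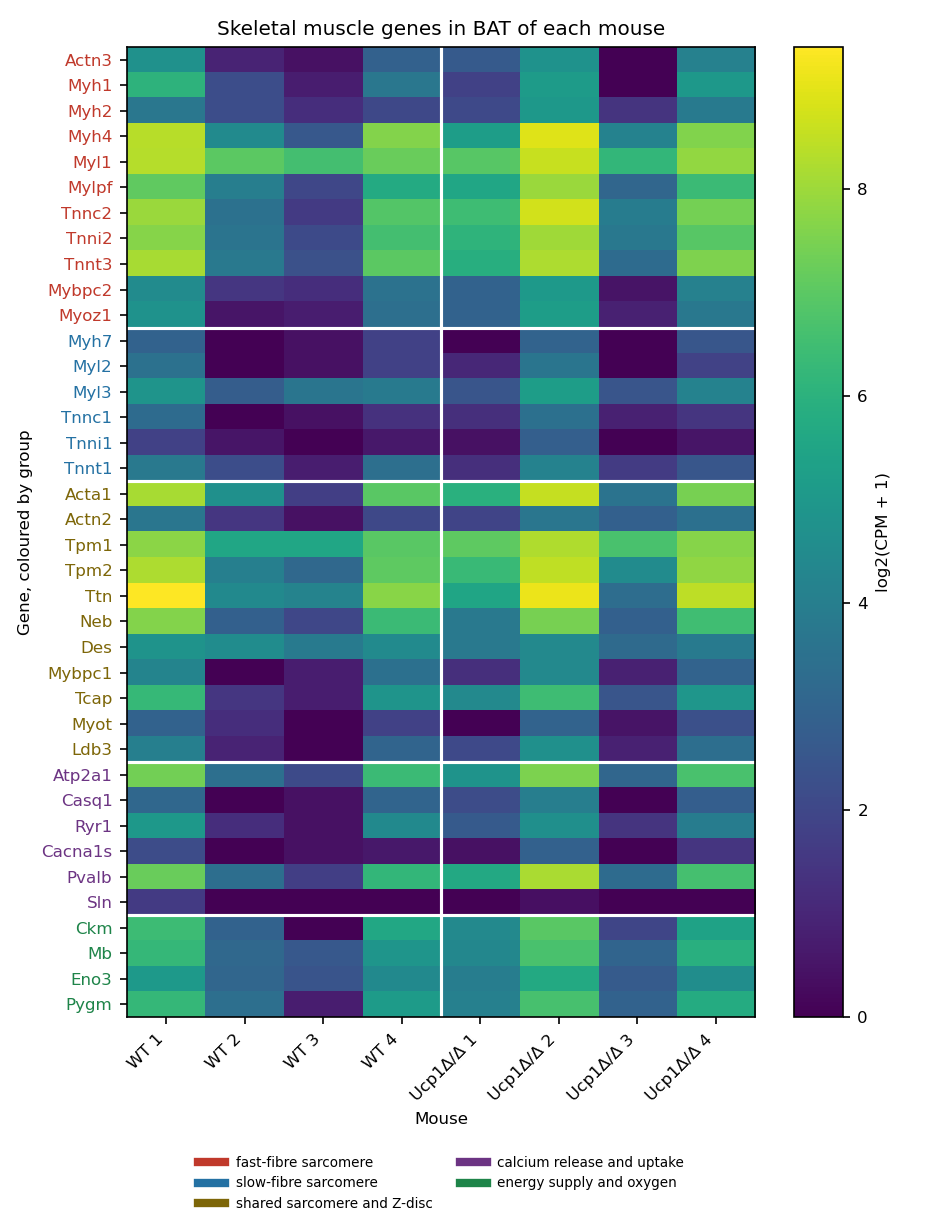
Level of each of the 38 muscle genes (rows, coloured by group) in each mouse (columns), as log2 of CPM plus 1, with a white line between WT and Ucp1Δ/Δ mice. WT mouse 1 and Ucp1Δ/Δ mouse 2 are bright in nearly every row, WT mouse 3 and Ucp1Δ/Δ mouse 3 are dark in most, and Myl1, Tpm1 and Des keep a visible level in every mouse.

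The same mice were high in gene after gene. WT mouse 1 had the highest level within WT in all 38 genes, and Ucp1Δ/Δ mouse 2 had the highest within Ucp1Δ/Δ in all 38. Over all 8 mice, Ucp1Δ/Δ mouse 2 was highest in 32 genes and WT mouse 1 in 6. In 32 of the 38 genes the 4 highest mice were WT mice 1 and 4 and Ucp1Δ/Δ mice 2 and 4, and the 6 exceptions were Myh2, Tnni1, Actn2, Tpm1, Des and Sln. At the lower end, all 38 genes had more than 3 counts in WT mouse 1, and 19 did in WT mouse 3. For the 18 genes with more than 3 counts in their lowest mouse, the highest mouse exceeded the lowest by 3.23-fold to 210.1-fold, with a median of 60.3-fold. Another 13 genes were at 0 counts in at least 1 mouse, which allows up to 3 counts there.

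Among the fast-fibre genes, Myh4, which encodes the myosin heavy chain of the fastest (IIb) fibres, was at 327, 21.5, 5.01 and 199 CPM in WT mice 1 to 4 and at 36.1, 475, 16.7 and 193 CPM in Ucp1Δ/Δ mice 1 to 4. Its counts ran from 15 in WT mouse 3 to 1528 in Ucp1Δ/Δ mouse 2, or 94.9-fold as CPM, with the genotypes overlapping. Tnnc2, the calcium-binding subunit of fast troponin, was at 246, 10.3, 2.0 and 117 CPM in WT and at 87.0, 421, 14.2 and 169 CPM in Ucp1Δ/Δ mice 1 to 4. Its 210-fold range from WT mouse 3 to Ucp1Δ/Δ mouse 2 is the widest among the 18 genes with more than 3 counts everywhere, but rests on 6 counts in the lowest mouse. The other subunits of fast troponin behaved alike: Tnni2, the inhibitory subunit, ranged 78.4-fold and Tnnt3, which binds tropomyosin, 73.3-fold, both from WT mouse 3 to Ucp1Δ/Δ mouse 2.

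Mylpf, the phosphorylatable light chain of fast myosin, was at 136, 15.2, 3.01 and 51.7 CPM in WT and at 45.6, 247, 7.52 and 83.3 CPM in Ucp1Δ/Δ mice 1 to 4, so the lowest and highest mice were again WT mouse 3 and Ucp1Δ/Δ mouse 2. Actn3, the fast-fibre α-actinin of the Z-disc, had 50, 2, 1 and 13 counts in WT and 15, 86, 0 and 38 in Ucp1Δ/Δ mice. Myh1, the myosin of IIx fibres, had 128, 8, 2 and 24 counts in WT and 7, 110, 0 and 72 in Ucp1Δ/Δ mice, and here WT mouse 1 was the highest. Mybpc2, the fast myosin-binding protein, and Myoz1, a Z-disc protein of fast fibres, stayed at or below 117 counts and were highest in Ucp1Δ/Δ mouse 2, with WT mouse 1 next. Myh2, the myosin of IIa fibres, had 24, 8, 4 and 6 counts in WT and 9, 100, 4 and 31 in Ucp1Δ/Δ mice. Myl1, the essential light chain of fast myosin, was different: at 320, 127, 92.8 and 148 CPM in WT and 121, 386, 71.9 and 228 CPM in Ucp1Δ/Δ mice it ranged only 5.38-fold, and it kept 172 or more counts in every mouse.

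The slow-fibre genes were sparse. Myh7, the slow myosin heavy chain, had 13, 0, 1 and 5 counts in WT and 0, 22, 0 and 11 in Ucp1Δ/Δ mice, and Tnni1, the slow inhibitory troponin, had 5, 1, 0 and 1 and then 1, 20, 0 and 1. Myl2, the slow regulatory light chain, and Tnnc1, slow and cardiac troponin C, reached at most 37 and 32 counts, in Ucp1Δ/Δ mouse 2, with WT mouse 1 next at 20 and 17. Tnnt1, the slow tropomyosin-binding troponin, had 25, 8, 2 and 19 counts in WT and 4, 54, 5 and 11 in Ucp1Δ/Δ mice. Myl3, the slow essential light chain, was the exception among the slow genes, with 54, 13, 34 and 27 counts in WT and 13, 116, 11 and 39 in Ucp1Δ/Δ mice. It was 7.85-fold higher in Ucp1Δ/Δ mouse 2 than in mouse 3 of that genotype, and WT mouse 3, lowest for most other genes, was not low for it.

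In the sarcomere genes that fibre types share, Acta1, the skeletal α-actin of the thin filament, was at 284, 25.1, 2.34 and 126 CPM in WT and at 60.1, 377, 10.9 and 174 CPM in Ucp1Δ/Δ mice 1 to 4. Ttn, the giant spring protein titin, was at 661, 20.6, 17.4 and 206 CPM in WT and at 44.9, 540, 9.19 and 345 CPM in Ucp1Δ/Δ mice. Acta1 spanned 161-fold and Ttn 71.9-fold, but their extremes fell in different mice, with Acta1 highest in Ucp1Δ/Δ mouse 2 and lowest in WT mouse 3, and Ttn highest in WT mouse 1 and lowest in Ucp1Δ/Δ mouse 3. Neb, the thin-filament ruler nebulin, ranged 65.5-fold from WT mouse 3 to WT mouse 1, and Tpm2, β-tropomyosin, 44.6-fold from WT mouse 3 to Ucp1Δ/Δ mouse 2. The Z-disc genes Tcap, Ldb3, Myot and Actn2 and the myosin-binding Mybpc1 had at most 279, 81, 22, 38 and 66 counts, each in Ucp1Δ/Δ mouse 2, and at most 2 counts in WT mouse 3.

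Tpm1, α-tropomyosin, which non-muscle cells also make, was at 216, 45.2, 45.7 and 126 CPM in WT and at 131, 301, 101 and 203 CPM in Ucp1Δ/Δ mice, a 6.64-fold range. Des, the intermediate filament protein desmin, which smooth muscle cells and pericytes also make, was the flattest of the 38 genes at 27.0, 22.4, 13.02 and 21.3 CPM in WT and 12.7, 20.2, 8.36 and 13.3 CPM in Ucp1Δ/Δ mice. Its range was 3.23-fold, and it did not follow the order of the other genes: WT mouse 2, with a summed level of 412 CPM, had more Des than Ucp1Δ/Δ mouse 2, with 5147 CPM.

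By summed level, the calcium handling genes had the widest range of the groups, resting on 20 counts in the lowest mouse, WT mouse 3. Pvalb, parvalbumin, the calcium buffer of fast fibres, was at 150, 9.41, 2.34 and 72.4 CPM in WT and at 49.2, 286, 8.78 and 96.6 CPM in Ucp1Δ/Δ mice 1 to 4. Atp2a1, which encodes SERCA1, the calcium pump of fast fibres, was at 165, 9.86, 3.34 and 82.1 CPM in WT and at 27.2, 184, 7.52 and 103 CPM in Ucp1Δ/Δ mice. Both were lowest in WT mouse 3 and highest in Ucp1Δ/Δ mouse 2, by 122-fold for Pvalb and 55.1-fold for Atp2a1. Ryr1, the calcium release channel, had 61, 3, 1 and 41 counts in WT and 15, 79, 4 and 33 in Ucp1Δ/Δ mice, Casq1, the calcium store protein calsequestrin, at most 49, and Cacna1s, the voltage sensor, at most 21. Sln, sarcolipin, an inhibitor of the calcium pump, was almost undetected, with 4 counts in WT mouse 1, 1 in Ucp1Δ/Δ mouse 2 and 0 in the other libraries.

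The genes of energy supply were high in the same mice. Ckm, muscle creatine kinase, was at 85.2, 6.72, 0 and 47.6 CPM in WT and at 20.2, 124, 2.93 and 40.8 CPM in Ucp1Δ/Δ mice 1 to 4. Its spread between mice of a genotype was the largest of all genes tested, a value that depends on the 0 in WT mouse 3. Mb, myoglobin, which stores oxygen, ranged 20.5-fold between 5.01 CPM in WT mouse 3 and 103 CPM in Ucp1Δ/Δ mouse 2. Eno3, the muscle enolase of glycolysis, ranged 11.7-fold between the same mice, and Pygm, muscle glycogen phosphorylase, had 2 counts in WT mouse 3 and 316 in Ucp1Δ/Δ mouse 2. Of the 38 genes, 17 have exons that overlap a gene on the opposite strand, among them Mb (with Apol6), Myl3 (Pth1r), Tnnc2 (Ube2c), Atp2a1 (Rabep2), Ckm, Ttn and Neb. Whether the counting used strand is not given in the sources used here, and without strand the reads of such a gene and its partner cannot be told apart.

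By group, the fast-fibre genes summed to 115 to 2246 CPM over the 8 mice (19.6-fold), the slow-fibre genes to 7.52 to 87.4 CPM (11.6-fold) and the shared sarcomere and Z-disc genes to 91.2 to 1920 CPM (21.1-fold). The calcium genes summed to 6.68 to 517 CPM (77.4-fold) and the energy genes to 10.0 to 376 CPM (37.5-fold). In WT mouse 3, Myl1, which itself ranged 5.38-fold, held 92.8 of the 115 CPM of the fast-fibre genes. The range of that group therefore depended on a single gene. In each of the 5 groups the 4 highest mice were, in descending order, Ucp1Δ/Δ mouse 2, WT mouse 1, Ucp1Δ/Δ mouse 4 and WT mouse 4. No group separated the genotypes.

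**Figure D2:**
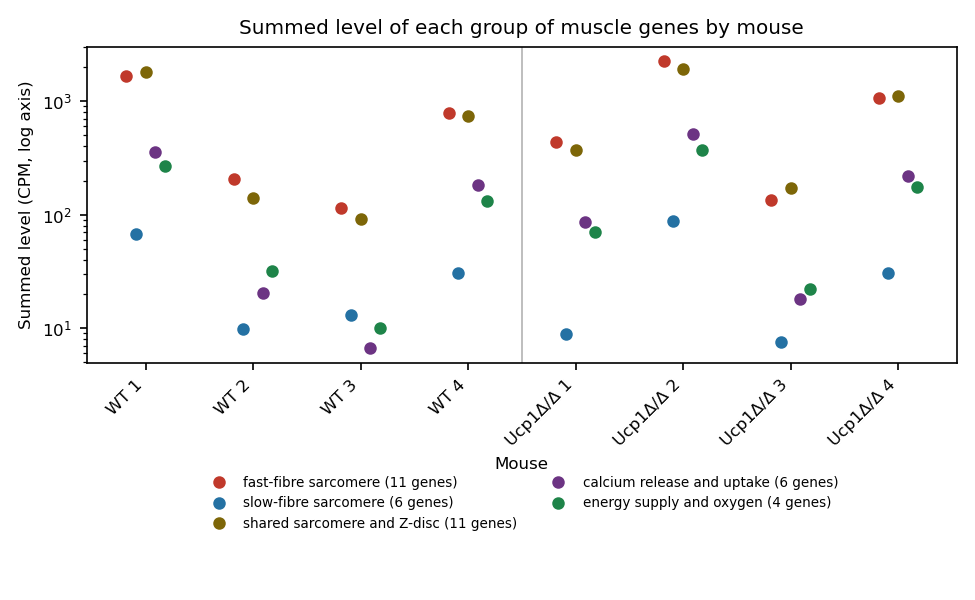
Summed level (CPM, log axis) of the 5 groups of muscle genes in each mouse, with 1 point for each group and mouse and a line between WT and Ucp1Δ/Δ. The groups rise and fall together, from 6.68 CPM for the calcium genes in WT mouse 3 to 2246 CPM for the fast-fibre genes in Ucp1Δ/Δ mouse 2.

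Promoters of these genes were compared in the 250 bases before their RefSeq start sites (GRCm38.p6), available for 30 of the 38, of which 24 had a single start site and the others up to 3. Sites were searched on both strands for MEF2, the factor that works with myogenic regulators in muscle genes, for CArG boxes, which bind serum response factor, for the E-box CANNTG, which the myogenic regulators bind, and for TATAAA. A MEF2 site was found in 4 of the 30 (13.3%; Myh1, Myh4, Ttn and Pvalb) against 3.42% of 27025 genes, and a CArG box in 4 (13.3%; Myh4, Myl3, Acta1 and Ldb3) against 1.62%. The share is of genes with a match at any of their start sites. An E-box occurred in 26 (86.7%) against 69.3% of all genes, and TATAAA in 6 (20%) against 14.3%. These are matches of letters only, with no test. Myh4 (chr11:67237562-67237811, plus strand), Acta1 (chr8:123894776-123895025, minus strand) and Ttn (chr2:76982548-76982797, minus strand), which ranged widely between mice, are shown beside Tpm1 (chr9:67049214-67049463, minus strand). Tpm1 held neither site and ranged less, by 6.64-fold, although its SD within genotypes still stood 94th of the 8930 genes tested. These genes do not stand for the rest. Tnnc2 and Mylpf, which ranged 210-fold and 82.2-fold, held neither site, and Myl3, which ranged 7.85-fold, held a CArG box. The relation of sites to range was not tested. Capitals mark the MEF2 sites, starting at -182 in Myh4 and -166 in Ttn, and the CArG boxes, starting at -104 in Myh4 and -73 in Acta1, counted from the start site.
Myh4: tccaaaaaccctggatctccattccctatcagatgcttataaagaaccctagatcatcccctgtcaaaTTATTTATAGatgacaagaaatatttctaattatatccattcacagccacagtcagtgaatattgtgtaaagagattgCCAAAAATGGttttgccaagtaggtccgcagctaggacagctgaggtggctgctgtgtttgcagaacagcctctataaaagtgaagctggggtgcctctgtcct
Acta1: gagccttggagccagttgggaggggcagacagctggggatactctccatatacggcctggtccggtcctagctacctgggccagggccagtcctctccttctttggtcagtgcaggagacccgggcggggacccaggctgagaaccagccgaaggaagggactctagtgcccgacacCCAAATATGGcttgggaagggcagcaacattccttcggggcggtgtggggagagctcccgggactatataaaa
Ttn: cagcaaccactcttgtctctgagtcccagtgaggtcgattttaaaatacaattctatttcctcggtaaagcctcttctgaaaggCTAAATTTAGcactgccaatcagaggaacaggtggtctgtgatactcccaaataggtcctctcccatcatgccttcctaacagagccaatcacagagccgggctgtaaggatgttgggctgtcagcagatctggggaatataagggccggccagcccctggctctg
Tpm1: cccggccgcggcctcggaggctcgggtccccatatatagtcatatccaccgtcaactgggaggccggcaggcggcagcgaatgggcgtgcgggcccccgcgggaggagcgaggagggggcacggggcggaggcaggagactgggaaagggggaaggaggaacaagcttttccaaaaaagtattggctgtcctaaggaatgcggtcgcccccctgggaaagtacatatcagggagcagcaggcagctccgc

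The genotypes were then compared gene by gene. After removal of genes with low counts, 8930 genes were tested, among them 30 of the 38 (Myh2, Myh7, Myl2, Tnnc1, Tnni1, Myot, Cacna1s and Sln had too few counts), and a gene was called at an adjusted p under 0.05. None of the 30 was called higher or lower in Ucp1Δ/Δ mice by edgeR's quasi-likelihood test, against 13.3% of all genes tested called higher and 7.63% called lower, and 0 of the 30 had an unadjusted p under 0.05. DESeq2's Wald test also called 0. No gene of the 30 had levels that did not overlap between the genotypes, against 23.7% of all genes tested.

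The log2FC was above 0 in 27 of the 30 genes and below 0 in Myh1, Des and Ryr1, with a median of 0.56 against -0.0087 over all genes tested. The median standard error was 0.86 against 0.25 over all genes tested, and the 95% intervals reached from -2.23 to 2.90. At Tnnc2 the log2FC was 0.90 (standard error 0.94, 95% interval -1.09 to 2.90, adjusted p = 0.553, edgeR with Benjamini-Hochberg adjustment), and at Myh4 it was 0.40 (standard error 0.94, 95% interval -1.61 to 2.41, adjusted p = 0.813). These intervals span differences of several fold in either direction, so a difference between genotypes of that size was not detectable with these mice. Des had the lowest adjusted p of the 30, with a log2FC of -0.58 (standard error 0.28, 95% interval -1.18 to 0.02, adjusted p = 0.167, edgeR with Benjamini-Hochberg adjustment), and Tpm1 followed with 0.78 (standard error 0.44, 95% interval -0.15 to 1.70, adjusted p = 0.236).

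**Figure D3:**
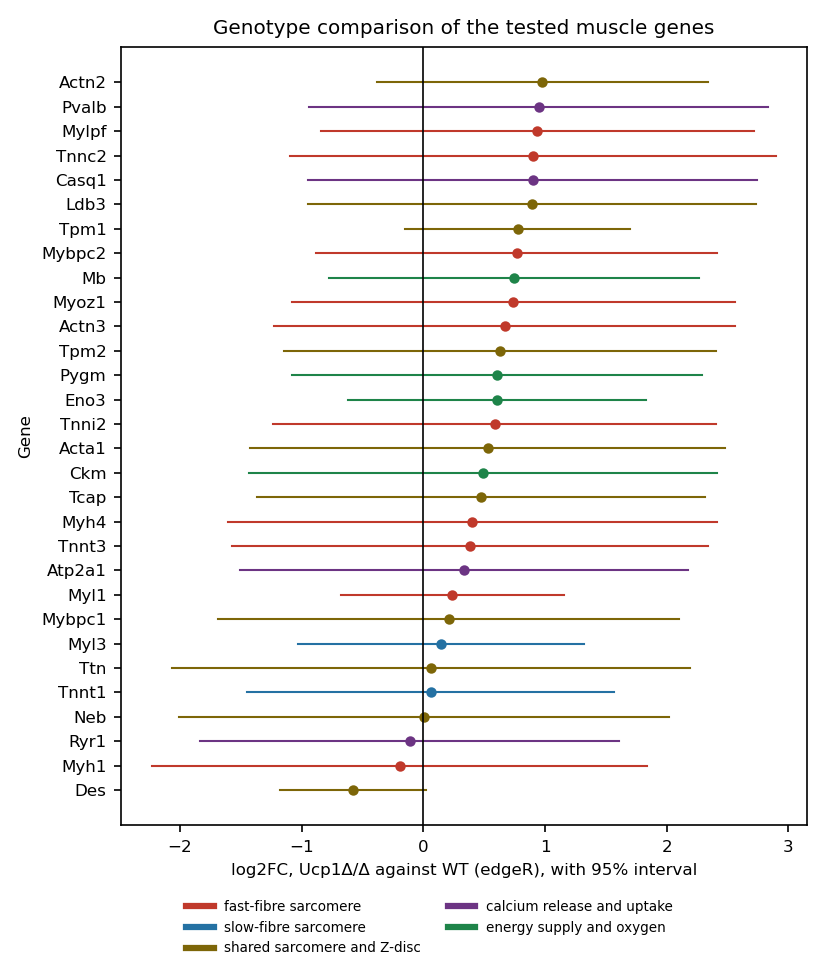
log2FC of Ucp1Δ/Δ against WT from edgeR (points, coloured by gene group) with 95% intervals (lines) for the 30 tested muscle genes, ordered by value. Every interval includes 0, from Des at -0.58 to Actn2 at 0.98, and the narrowest intervals belong to Des, Myl1 and Tpm1.

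The direction depended on single mice. Without Ucp1Δ/Δ mouse 2, 28 of the 30 tested genes had a log2FC below 0 and the median was -0.30, with 0 called. Without WT mouse 1, 29 of 30 were above 0, the median was 1.58, and Actn2 (log2FC 2.25, adjusted p = 0.0208) and Tpm1 (log2FC 1.35, adjusted p = 0.0313) were called higher by edgeR with Benjamini-Hochberg adjustment, against 11.8% of the 9293 genes then tested. The filter also mattered: with every gene of at least 1 count kept, 6 of the 38 (Mb, Myh2, Mylpf, Pvalb, Tnnc2 and Tpm1) were called higher, against 9.81% of the 16617 genes then tested (15.1% called in either direction), and the standard error of Tnnc2 fell from 0.94 to 0.28.

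Set beside the other genes of the same libraries, the spread of these genes between mice of a genotype was wide. The SD of log2 CPM within genotypes had a median of 2.11 over the 30 tested genes and of 0.33 over all genes tested, and 27 of the 30 stood among the 50 genes with the largest SD of the 8930. Ckm stood first (2.62), then Ttn (2.61) and Tnnc2 (2.56). The value of Ckm includes 0 counts in WT mouse 3 and so depends on the prior count of 2 used for log2 CPM. Tpm1 and Myl1 stood 94th and 99th with an SD of 0.92 each, and Des stood 1919th with an SD of 0.46. Since the genes were chosen for this spread, these ranks describe the choice.

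**Figure D4:**
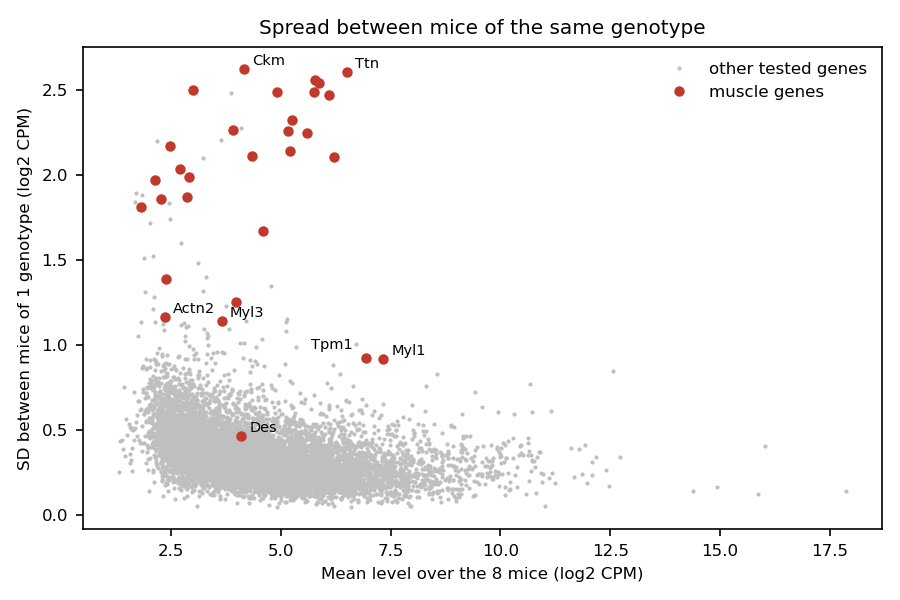
SD of log2 CPM between mice of the same genotype (vertical axis) against the mean log2 CPM over the 8 mice (horizontal axis) for the 30 tested muscle genes (red) and the 8900 other tested genes (grey). The red points lie above 1.1 apart from Tpm1, Myl1 and Des, and the highest are Ckm and Ttn.

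The make-up of the muscle signal was compared between mice as shares of counts, with Wilson 95% intervals that cover counting error only. Fast genes held between 89.8% and 98.0% of the counts of the fast and slow sarcomere genes. The lowest share, in WT mouse 3, rested mostly on Myl1 (278 of 343 fast counts) and Myl3 (34 of 39 slow counts). The slow share of the 6 troponin genes was 3.18% (2.40 to 4.20), 10.5% (5.6 to 18.7), 9.68% (3.35 to 24.9) and 3.31% (2.22 to 4.92) in WT mice 1 to 4. In Ucp1Δ/Δ mice 1 to 4 it was 1.47% (0.78 to 2.78), 3.27% (2.71 to 3.94), 7.61% (3.73 to 14.9) and 1.42% (0.88 to 2.30). The 3 mice with the highest slow shares were those with the fewest troponin counts, 86, 31 and 92. Among the mice with more counts, the interval of Ucp1Δ/Δ mouse 4 lay below that of WT mouse 1 and overlapped narrowly with that of WT mouse 4, and it also lay below that of Ucp1Δ/Δ mouse 2, a mouse of its own genotype.

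Of the counts of the 4 myosin heavy chain genes, whose longest transcripts have similar lengths (6016 to 6230 nt), Myh4 took 79.6%, 75.0%, 68.2% and 91.8% in WT and 86.4%, 86.8%, 90.9% and 79.8% in Ucp1Δ/Δ mice 1 to 4. Myh1 took 15.9% (13.5 to 18.5) in WT mouse 1 and 12.8% (10.3 to 15.8) in Ucp1Δ/Δ mouse 4, against 5.62% (3.81 to 8.23) in WT mouse 4 and 6.25% (5.21 to 7.48) in Ucp1Δ/Δ mouse 2. The Myh1 share of the mice rich in muscle counts differed by more than counting error within each genotype. Myh1, Myh2 and Myh4 are similar in sequence and lie side by side on chromosome 11, so how reads were divided between them is uncertain.

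**Figure D5:**
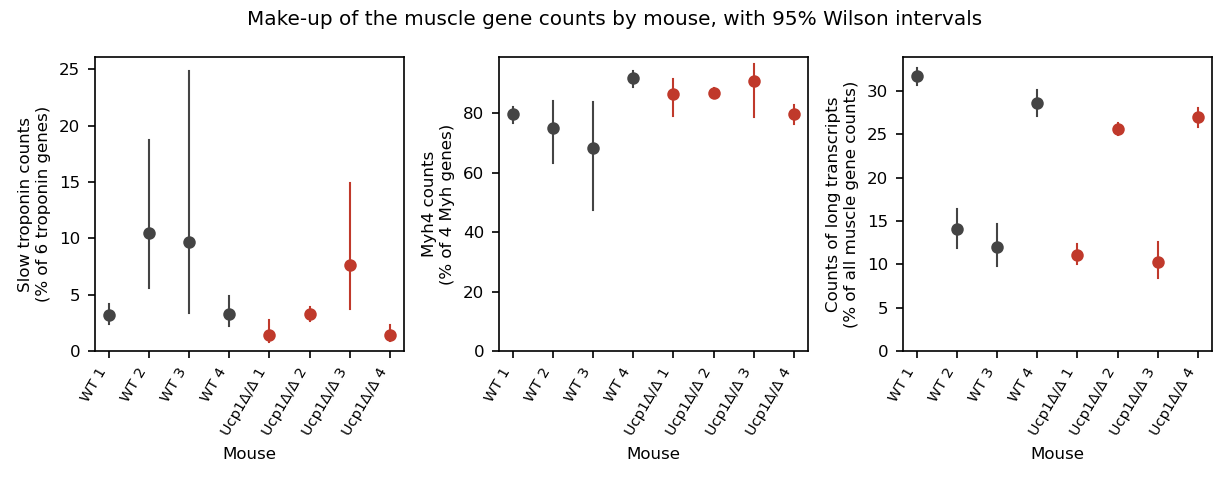
Shares of counts in each mouse with 95% Wilson intervals: slow troponins among the 6 troponin genes (left), Myh4 among the 4 myosin heavy chain genes (middle) and long transcripts among all 38 muscle genes (right), WT in grey and Ucp1Δ/Δ in red. Long transcripts take 25.6% to 31.7% in WT mice 1 and 4 and Ucp1Δ/Δ mice 2 and 4, and 10.3% to 14.0% in the other mice.

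Members with a longest transcript of at least 5000 nt (9 genes, among them Ttn, Neb, Ryr1 and the myosin heavy chains) took 31.7%, 14.0%, 12.1% and 28.6% of the muscle gene counts in WT mice 1 to 4 and 11.1%, 25.6%, 10.3% and 26.9% in Ucp1Δ/Δ mice 1 to 4. In WT mice 2 and 3 and Ucp1Δ/Δ mouse 3 the denominator was held up by Myl1, Tpm1, Des and Myl3, which together took 48.6%, 69.2% and 52.7% of the counts there, against 14.2% in WT mouse 1 and 14.4% in Ucp1Δ/Δ mouse 2. Ucp1Δ/Δ mouse 1 stood apart: those 4 genes took 27.6% there, and Ttn was at 44.9 CPM against 206 CPM in WT mouse 4 while Tnnc2, a short transcript, was at 87.0 against 117 CPM. For the other genes tested, the level was set against the mean of the other mice of the same genotype, so WT and Ucp1Δ/Δ values have different references. In Ucp1Δ/Δ mouse 1 the median log2 difference was 0.17 for 1819 short genes (under 2000 nt) and -0.14 for 2217 long genes. It was -0.24 and 0.26 in WT mouse 4, and 0.31 and -0.24 in WT mouse 2. The part of this length difference between libraries in the muscle genes was not tested, and the length classes and the 4 genes were picked after their values were seen.

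Across the 8 mice, the summed level of Myl1, Tpm1, Des and Myl3 ranged 4.56-fold, from 163 to 743 CPM, and that of the other 34 genes 60.8-fold, from 72.5 to 4403 CPM. The 4 genes were therefore the larger part of the signal in WT mouse 3 (163 against 72.5 CPM) and in Ucp1Δ/Δ mouse 3 (186 against 167 CPM), and a minor part elsewhere, apart from WT mouse 2, where the sums were 200.3 and 212 CPM.

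How closely each gene followed the rest was given by Pearson's r of its log2 CPM with the log2 of the summed CPM of the other members over the 8 mice, a description in which all points share their libraries. The r was over 0.9 in 28 of the 38 genes, Myh7 and Myl2 among them, which had too few counts to be tested. It was highest in Ldb3 (0.996), Atp2a1 (0.995) and Mb (0.994). It was lowest in Des (0.55), Sln (0.57, on 5 counts in all), Myl3 (0.79), Actn2 (0.80) and Tnni1 (0.82, on 29 counts in all). Of the 8900 other genes tested, 27 (0.303%) had an r over 0.9. Their median r was 0.012, against 0.97 over the 30 contractile genes tested. The 10 with the highest r were Lrrc30, Xirp2, Trim63, Hrc, Cmya5, 2310022A10Rik, Filip1, Lmod2, Usp13 and Hspb6, with r between 0.97 and 0.99. Xirp2 and Lmod2 encode actin-binding proteins of muscle, Hrc a calcium-binding protein of the sarcoplasmic reticulum, and Trim63 the muscle ubiquitin ligase MuRF1, which had 174, 9, 4 and 40 counts in WT and 57, 354, 6 and 112 in Ucp1Δ/Δ mice.

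In a list of 45 other striated muscle genes, 23 had the same 4 highest mice as most contractile genes. The summed level of the list was 527, 134, 106 and 278 CPM in WT mice 1 to 4 and 185, 660, 158 and 395 CPM in Ucp1Δ/Δ mice 1 to 4, and 24 of the 45 were highest in Ucp1Δ/Δ mouse 2, 13 in WT mouse 1 and 8 in other mice. Of the 18 tested, 10 had an r over 0.9 with the members' sum, and over the 45 the lowest r was -0.72, in Fbp2, a muscle fructose bisphosphatase. Cox6a2, a muscle subunit of cytochrome oxidase, had 113, 5, 0 and 29 counts in WT and 37, 255, 14 and 78 in Ucp1Δ/Δ mice, and Trdn, triadin of the calcium release complex, had 168, 14, 4 and 57 and then 19, 254, 2 and 128. The median log2FC of the 18 was 0.26, and 1, Fhl1, a LIM-domain protein found in muscle and other cells, was called higher (20.5 ± 6.69 CPM in WT and 66.5 ± 13.6 CPM in Ucp1Δ/Δ mice, SD, n = 4, log2FC 1.72, standard error 0.24, adjusted p = 9.36e-05, edgeR with Benjamini-Hochberg adjustment). Its levels did not overlap between genotypes and did not follow the order of the contractile genes (r of 0.50).

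The regulators that start the muscle programme were not detected. Of 17 myogenic regulators and markers of forming muscle, 9 were at 0 counts in every mouse: Myod1, Myog and Myf5, which switch on the muscle programme, Pax7 and Pax3 of muscle stem cells and progenitors, Mymk and Mymx, which fuse myoblasts, Myh8, a perinatal myosin, and Chrng, the fetal subunit of the acetylcholine receptor. A count of 0 allows up to 3 counts, or 0.963 to 1.49 CPM before TMM scaling. Myf6, the regulator that persists in adult fibres, had 1, 3, 0 and 0 counts in WT and 0, 2, 0 and 0 in Ucp1Δ/Δ mice, and Myh3, embryonic myosin, had a single count in 1 mouse. The list summed to 114 to 159 CPM in WT and 142 to 188 CPM in Ucp1Δ/Δ mice, with most of it from genes that other cells also express, such as Mef2a, Mef2c and Mef2d. Of the 4 genes tested, Mef2c was called higher (28.2 ± 10.5 CPM in WT and 53.9 ± 13.8 CPM in Ucp1Δ/Δ mice, SD, n = 4, log2FC 0.95, standard error 0.27, adjusted p = 0.0185, edgeR with Benjamini-Hochberg adjustment), and none had an r over 0.9 with the contractile genes. Of 10 neuromuscular junction genes, which fibres express in few nuclei, none had more than 3 counts in any mouse.

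Cardiac and smooth muscle markers were compared in the same way, with 1 of 10 cardiac and 10 of 12 smooth muscle and pericyte markers tested, and none of those tested had an r over 0.9 with the contractile genes. Of the cardiac markers, 4 (Tnnt2, Nppa, Nppb and Myl7) were at 0 in every mouse and 8 never exceeded 3 counts. The exceptions were Myl4, with at most 10 counts, and Ryr2, the cardiac calcium release channel, which had 0 counts in all 4 WT mice and 15, 18, 19 and 22 in Ucp1Δ/Δ mice 1 to 4. Set against 3 counts over the WT libraries together, its mean Ucp1Δ/Δ level was at least 21.6-fold higher (adjusted p = 5.22e-05, edgeR with Benjamini-Hochberg adjustment), with an r of 0.19 with the contractile genes. Of the smooth muscle and pericyte markers, 4 (Acta2, Lmod1, Synpo2 and Pdgfrb) were called higher in Ucp1Δ/Δ mice, and the list summed to 253 to 372 CPM in WT and 405 to 473 CPM in Ucp1Δ/Δ mice. The range of this sum within a genotype is narrow beside the 17.7-fold range of the contractile genes in WT. Rgs5 was the largest part of the sum in every mouse (146 to 252 CPM in WT), so the sum does not show the range of the other markers.

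Of 15 brown adipocyte markers, 12 had an r below 0 with the contractile genes over the 8 mice and 3 (Zic1, Lhx8 and Pparg) an r above 0, from -0.81 in Otop1 to 0.34 in Lhx8. Ucp1, the uncoupling protein, was at 2051, 4110, 3427 and 1291 CPM in WT mice 1 to 4 and at 2821, 1421, 1972 and 2394 CPM in Ucp1Δ/Δ mice 1 to 4, and Plin1, a lipid droplet coat protein, was at 424, 869, 712 and 487 CPM in WT. Both were lower in WT mice 1 and 4 than in WT mice 2 and 3, but Ucp1 was higher in Ucp1Δ/Δ mouse 4 than in mouse 3, which had less muscle signal. Pparg, the adipocyte transcription factor, ran the other way in WT, at 114, 80.6, 93.5 and 108 CPM, and Ppargc1a, a regulator of mitochondrial genes, at 33.7, 27.8, 43.4 and 47.1 CPM, followed neither order. The summed level of the 15 markers, which in WT came mostly from Ucp1 and Cidea, was 11755, 18744, 15624 and 8019 CPM in WT mice 1 to 4. In Ucp1Δ/Δ mice 1 to 4 it was 10838, 7057, 10541 and 8382 CPM, lowest in mouse 2, which had the most muscle signal, followed by mouse 4. All 15 were tested, 3 were called higher and 5 lower, and none had an r over 0.9 with the contractile genes. The part of the adipocyte content of a sample in the muscle levels was not tested.

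Markers of the other cell types were compared with the same test. All 8 macrophage markers were called higher, summing to 66.1 to 99.5 CPM in WT and 674 to 1115 CPM in Ucp1Δ/Δ mice, as were all 6 fibroblast and matrix markers, at 340 to 534 and 1068 to 2163 CPM. The 6 endothelial markers had no call, at 152 to 180 and 194 to 213 CPM. None of these genes had an r over 0.9 with the contractile genes, although Ucp1Δ/Δ mouse 2 had the highest macrophage and matrix sums as well as the highest muscle sum.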

How the data were processed

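BAT RNA of 8 mice was sequenced from a single end with a digital mRNA-seq service. According to the methods of the paper, the authors used bbduk for trimming, STAR for alignment to mm10 and HTseq-counts for counting by gene, and raw counts were deposited with 1 column per mouse. The submitters' processing notes instead list Trimmomatic, HISAT2 and DESeq2. The deposited log2 values equal the log2 of the count over 1 factor per mouse, plus 1 (within 1e-09), and were used for 1 alternative. The strand setting and the annotation release are not given in the sources used here.

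Symbols were taken from GENCODE (30934 of 31053 identifiers matched). Genes were filtered with filterByExpr, scaled by TMM, and tested on genotype alone with edgeR 4.0.16 (R 4.3.3), its quasi-likelihood test and Benjamini-Hochberg adjustment over all 8930 genes tested. Standard errors were derived from the log2FC and its F statistic, and log2 CPM used a prior count of 2. Alternatives used DESeq2 1.42.0 and limma 3.58.1. On simulated counts (5 simulations of this comparison, 8700 genes tested in the first), 99.4% of genes changed by a log2 of 2 and 52.4% of those changed by a log2 of 1 were recovered, and 5.85% of calls were false. The changed genes were drawn at random from all genes tested, so this recovery does not hold for the muscle genes. Their SD within genotypes had a median of 2.11, against 0.33 over all genes tested.

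Groups came from the labels. No library was a duplicate (chi-square over degrees of freedom from 5.36 to 25.4 between mice of a genotype). Separate mice are assumed from the labels. Named in the analysis were all 38 genes, Pnpla2, some genes of the marker lists that were called by the test or had the widest range, and the 10 genes with the most similar pattern. Not all of these appear by name in the text. The macrophage, endothelial, and fibroblast and matrix markers are given there only as sums and counts, and several called brown adipocyte markers only as counts. The members and all lists were chosen with earlier results of these data known.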

Additional observations from a re-analysis of the deposited data

Results flagged for a closer look

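A mouse that stood far from the other 3 of its genotype was looked for in the log2 CPM of each named gene, by the gap to its nearest neighbour as a share of the genotype's whole range. Of 122 genotype groups checked, 2 passed Dixon's 95% limit for 4 mice, where chance flags about 1 in 20 groups, or 6.1 here. Sln in WT mouse 1 had a share of 1, on 4 counts against 0, 0 and 0 in the other WT mice. Mef2c in Ucp1Δ/Δ mouse 1 had a share of 0.8293, with 5.10 on the log2 CPM scale while the remaining Ucp1Δ/Δ mice lay between 5.87 and 6.03. No other contractile gene passed the limit in either genotype.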

How the results depend on the processing

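The count of muscle genes called higher was 0 under other scaling, a filter of at least 10 counts in every mouse, DESeq2's Wald test, limma voom, limma trend and robust dispersion. It rose to 6 of 38 with a filter of at least 1 count in any mouse, where 1630 of all 16617 genes (9.81%) were called higher, and the cause was not tested. With each mouse left out in turn it ran from 0 to 2, the 2 of 30 being Actn2 and Tpm1 without WT mouse 1, where 1093 of 9293 genes (11.8%) were called higher. The count called lower stayed at 0 in every setting run. Over all genes tested and with each mouse left out in turn, calls ran from 1345 without Ucp1Δ/Δ mouse 2 to 2155 without WT mouse 4, and fell to 1195 with at least 10 counts in every mouse, where 6928 genes and 12 muscle genes were tested. Pnpla2 ran from -2.68 to -2.48 over all settings.

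The log2FC changed sign under limma voom with quality weights for Myh1 (0.052), Myl3 (-0.36) and Ryr1 (1.29), under limma trend on the deposited log2 values for Myl3 (-0.26), Tnnt1 (-0.16), Ryr1 (0.54) and Usp13 (-0.015), under DESeq2's Wald test for Tnnt1 (-0.12), Neb (-0.071), Xirp2 (-0.056) and Usp13 (-0.042), under DESeq2's size factors for Neb (-0.038), under a filter of at least 1 count for Neb (-0.020) and under scaling by total counts for Ryr1 (0.037). Without Ucp1Δ/Δ mouse 2 and without WT mouse 1, the lowest and the highest log2FC over the mice left out in turn were -0.12 and 2.38 for Actn3, -0.84 and 1.75 for Myh1, -0.74 and 1.28 for Myh4, -0.28 and 0.71 for Myl1, -0.14 and 2.09 for Mylpf, -0.038 and 2.04 for Tnnc2, -0.20 and 1.71 for Tnni2, -0.31 and 1.52 for Tnnt3 and -0.11 and 1.73 for Mybpc2. Under the same omissions they were -0.39 and 2.15 for Myoz1, -0.75 and 0.61 for Myl3, -1.21 and 0.59 for Tnnt1, -0.40 and 1.63 for Acta1, -0.022 and 1.76 for Tpm2, -0.76 and 1.54 for Ttn, -0.97 and 1.26 for Neb, -1.17 and 1.23 for Mybpc1 and -0.51 and 1.92 for Tcap. For other genes these values were -0.28 and 2.06 for Ldb3, -0.49 and 1.39 for Atp2a1, -0.12 and 1.53 for Casq1, -0.85 and 0.76 for Ryr1, -0.15 and 2.02 for Pvalb, -0.67 and 1.46 for Ckm, -0.00099 and 1.81 for Mb, -0.12 and 1.18 for Eno3 and -0.19 and 1.63 for Pygm. The last of them were -0.49 and 1.80 for Lrrc30, -0.85 and 1.38 for Xirp2, -0.23 and 2.51 for Trim63, -0.33 and 1.27 for Hrc, -0.56 and 1.05 for Cmya5, -0.14 and 1.30 for Lmod2, -0.81 and 1.42 for Usp13 and -0.20 and 0.62 for Hspb6. Filip1 ran from -0.094 to 0.36 (without WT mouse 3, without WT mouse 1).

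Same-numbered mice are different animals, and their deviations from the genotype means correlated by -0.087, -0.20, 0.30 and 0.24 for numbers 1 to 4. The signs were mixed and differently numbered mice were not compared, so whether the numbers pair the mice was not tested. With the replicate block, 1719 genes and 0 muscle genes were called, and the sign changed for Myh1 (0.10), Myl3 (-0.14), Tnnt1 (-0.17), Mybpc1 (-0.0030) and Ryr1 (0.0043).

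The counts limit the low genes: 8 muscle genes could not be tested, and WT mouse 3 had more than 3 counts for 19 of the 38. Reads were not reprocessed, so the aligner, counting on a strand and the splitting of reads between myosin genes could not be varied.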
